A study of Mus musculus with 9 samples.

Results

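The 10 genes described here encode interleukin-1 family cytokines and the inflammasome proteins that process them: Il1a, Il1b, Il1rn, Il18, Il18bp, Nlrp3, Pycard, Casp1, Casp4 and Gsdmd. They were chosen by name, with earlier results of these data known, and all 10 were found among the 51912 genes of the deposited count tables. The study asked how the dose of a viral vector alters the transcriptome of hippocampal pyramidal neurons. Male C57BL/6 mice carrying Cre recombinase under the Camk2a promoter, which is active in excitatory forebrain neurons, were injected with rAAV5, an adeno-associated virus vector, from which Cre switches on the red fluorescent protein mCherry in the cells to be sorted. The labels name doses of 2.88e+08, 2.88e+09 and 2.88e+10 vector genomes, call the lowest the control, and place the sort of mCherry-positive cells 3 weeks after injection. Every library therefore comes from injected tissue, and no uninjected group is described. Slices of 300 um were digested with papain before the sort, and dead cells were gated out with DAPI.

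The series text describes 9 samples in 3 groups, but the labels of the libraries, titled S1001 to S1009, give none of them a dose. The column headers carry the letter H in S1001 to S1003, M in S1004 to S1006 and L in S1007 to S1009. The labels do not explain these letters, so no library was assigned to a dose and nothing was tested between doses. Levels of single libraries are printed, in CPM, counts scaled to a common library size.

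Interleukin-1 alpha and beta are potent inflammatory cytokines that act through the same receptor. Interleukin-1 beta and interleukin-18 are made as inactive precursors, which caspase-1 cleaves once a sensor such as NLRP3 and the adaptor ASC have assembled an inflammasome. Caspase-1, and in mouse the caspase-11 encoded by Casp4, also cleave gasdermin D, whose fragment forms pores in the cell membrane. In the brain, microglia and other macrophages are the best known source of these proteins.

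Total counts ranged from 12136830 to 19151596 per library, and the upper limit for a gene with 0 counts, taken as 3 counts, was 0.158 to 0.246 CPM depending on the library, for counting error only. Genes with any count numbered 23214 to 25478 in S1001 to S1006 and only 17906 to 20255 in S1007 to S1009. The reason for the lower number was not tested. The 3 sets of libraries that share a header letter stood apart from each other. For pairs within S1001 to S1003 the chi-square of the counts per degree of freedom was 2.67 to 5.14, against 24.3 to 33.6 within S1004 to S1006 and 27.2 to 38.9 within S1007 to S1009. Pairs across the sets gave 83.3 to 184. No pair agreed within sampling noise, and S1001 to S1003 were by far the most alike. All 8 pyramidal neuron markers averaged 1 CPM or more, and 2 of them passed the 2-fold spread defined below. Their sum was 5247 to 5496 CPM in S1001 to S1003, 3274 to 3505 CPM in S1004 to S1006 and 5948 to 7860.2 CPM in S1007 to S1009. Of the 6 markers of inhibitory neurons 5 passed. They summed to 212 to 243 CPM, 621 to 995 CPM and 293 to 1315 CPM in the same order of sets.

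For 9 of the 10 genes the second highest library exceeded the second lowest by 2-fold or more, on the scale of log2(CPM + 1), a difference called the spread below. The same held for 26.4% of the 14787 genes that averaged 1 CPM or more. The median spread of the 10 genes was 4.41 on the log2 scale, against 0.66 over all those genes. Il18 was the exception, with a spread of 0.61. S1001, S1002 and S1003 were the 3 highest libraries for 8 of the 10 genes, the exceptions being Il18 and Casp1, against 12.7% of all genes. Il1rn, 1 of the 8, averaged 1 CPM only through these libraries, so it adds nothing to this count. S1007, S1008 and S1009 were the 3 lowest for 9 of the 10, the exception being Nlrp3, against 13.6% of all genes. With S1001 to S1003 left out, 8 genes were past 2-fold, of 9 that still averaged 1 CPM, against 15.7% of all 14430 genes at that level. With S1007 to S1009 left out 7 of 10 were, against 10.1% of all 14945 genes. Because the 10 genes were chosen with earlier results of these data known, these shares describe the set and do not test it.

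**Figure D1:**
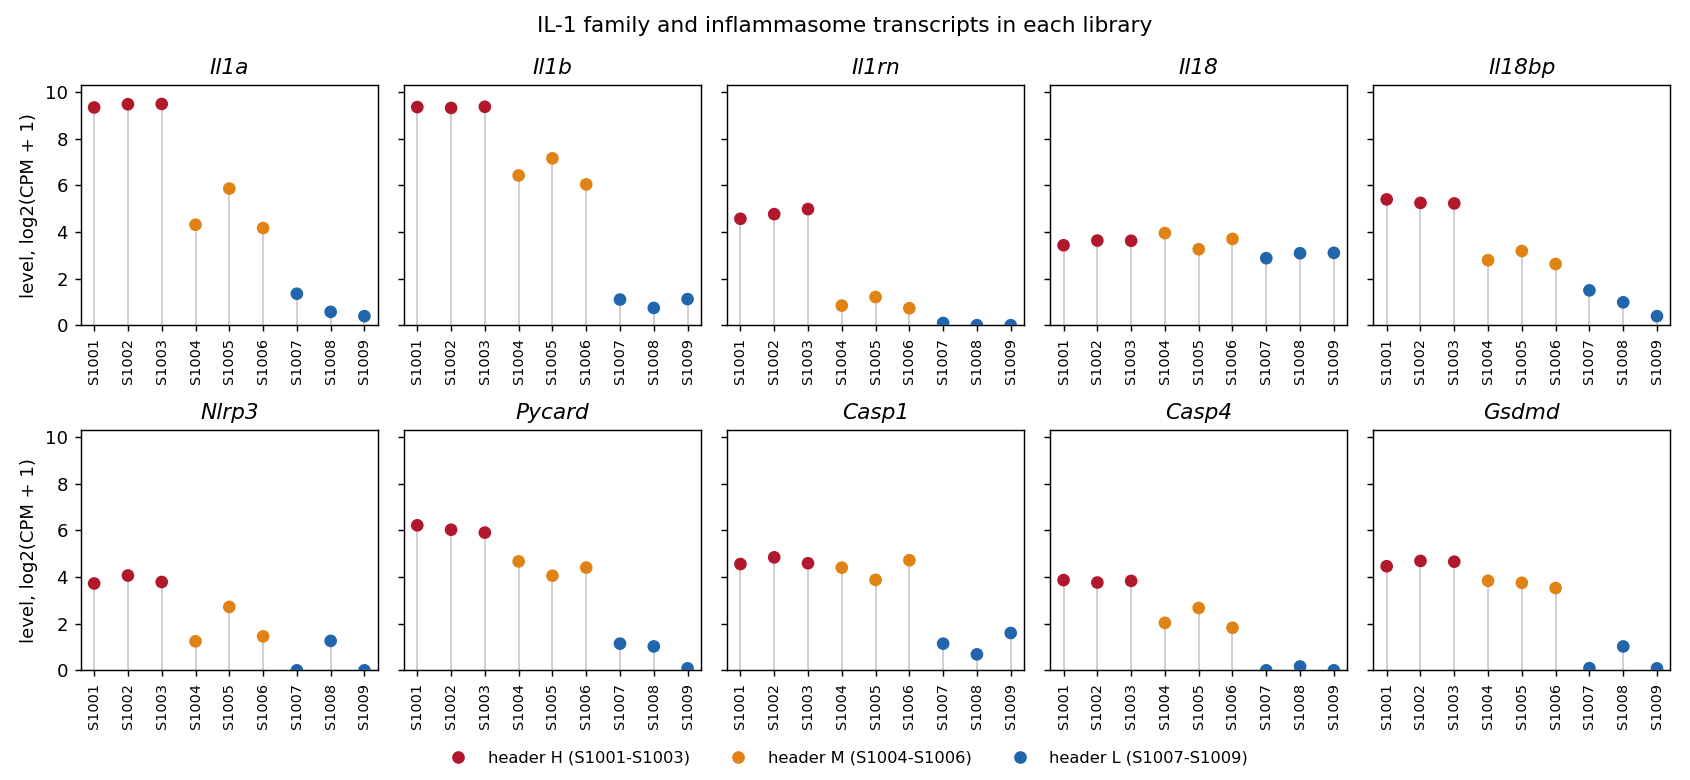
Level of each of the 10 genes in each library, as log2(CPM + 1), coloured by the letter in the column header. Il1a and Il1b reach 645 to 715 and 635 to 658 CPM in S1001 to S1003, Il18 lies between 6.32 and 14.4 CPM in all 9 libraries, and Casp1 is at similar levels in S1001 to S1006.

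Markers of macrophages varied over the same libraries. All 13 microglial markers passed 2-fold, and their sum was 12779 to 14055 CPM in S1001 to S1003, 4113 to 5321 CPM in S1004 to S1006 and 24.4 to 116 CPM in S1007 to S1009. All 7 markers of border macrophages, the macrophages of meninges and vessels, passed 2-fold in another order, summing to 399 to 406 CPM in S1001 to S1003, 1588 to 2245 CPM in S1004 to S1006 and 2.22 to 17.0 CPM in S1007 to S1009. C1qb and C1qc were the most abundant microglial markers and Mrc1 and Cbr2 the most abundant of border macrophages. In S1004 to S1006 most of the microglial sum was C1qa, C1qb and C1qc, at 805 to 1117, 1166 to 1615 and 1303 to 1729 CPM. Single microglial markers fell unequally. Tmem119 measured 224 to 238 CPM in S1001 to S1003, 1.84 to 4.00 CPM in S1004 to S1006 and 0.247 to 3.50 CPM in S1007 to S1009. Csf1r measured 461 to 473, 237 to 351 and 0.863 to 11.8 CPM in the same order. No microglial or border macrophage marker was at 0 in any library. Of the 6 monocyte markers 3 averaged 1 CPM, and the sum of all 6 was 57.0 to 63.2 CPM in S1001 to S1003, mostly Ly6c2, against 1.84 to 4.14 CPM in S1004 to S1006, where Ly6c2 was at 0, and 0.431 to 3.77 CPM in S1007 to S1009. Lymphocyte markers summed to 43.9 to 49.8 CPM, 3.42 to 4.90 CPM and 0 to 0.0673 CPM in the same order of sets. Neutrophil markers summed to at most 4.21 CPM, with Mmp9 at up to 4.00 CPM and each of the other 8 at no more than 0.246 CPM. Retnlg was at 0 in all libraries. All 8 oligodendrocyte markers passed 2-fold as well, with sums of 597 to 621 CPM, 93.5 to 156 CPM and 31.2 to 60.4 CPM. Of the astrocyte markers 5 of 7 passed, and of the 4 dendritic cell markers that averaged 1 CPM, out of 6, 2 passed, with sums of 89.5 to 264 and 6.84 to 29.9 CPM over all libraries. None of the 6 endothelial markers averaged 1 CPM, and they summed to 0.0673 to 3.44 CPM. What part these cells had in the values below was not tested. In such bulk samples, fewer cells of a type and less RNA per cell cannot be told apart.

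RefSeq promoter windows on build GRCm38.p6 were found for 9 of the 10 genes, as 13 windows of 300 bases. They are shown for Il1a and Il1b, of widest spread, for Casp4, the gene with the most motif matches, and for Il18, of smallest spread. The 250 bases before the start site are printed 5' to 3' on the gene's strand, with motif matches in capitals.
Il1a, chr2:129309973-129310222, minus strand: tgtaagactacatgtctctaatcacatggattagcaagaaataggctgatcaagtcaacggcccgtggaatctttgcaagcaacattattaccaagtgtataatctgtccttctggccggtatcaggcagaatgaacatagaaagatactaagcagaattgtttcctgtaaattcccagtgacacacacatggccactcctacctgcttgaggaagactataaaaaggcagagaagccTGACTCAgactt
Il1b, chr2:129371140-129371389, minus strand: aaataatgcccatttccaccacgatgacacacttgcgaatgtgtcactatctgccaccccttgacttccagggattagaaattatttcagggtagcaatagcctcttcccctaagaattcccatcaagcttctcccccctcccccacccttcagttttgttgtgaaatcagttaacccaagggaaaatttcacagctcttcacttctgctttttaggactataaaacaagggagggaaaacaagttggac
Casp4, chr9:5308599-5308848, plus strand: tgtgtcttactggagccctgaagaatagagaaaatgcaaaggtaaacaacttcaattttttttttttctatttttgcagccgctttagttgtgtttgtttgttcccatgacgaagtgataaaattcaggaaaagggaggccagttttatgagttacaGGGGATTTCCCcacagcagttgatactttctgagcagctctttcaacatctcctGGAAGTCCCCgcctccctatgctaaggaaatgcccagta
Il18, chr9:50554450-50554699, plus strand: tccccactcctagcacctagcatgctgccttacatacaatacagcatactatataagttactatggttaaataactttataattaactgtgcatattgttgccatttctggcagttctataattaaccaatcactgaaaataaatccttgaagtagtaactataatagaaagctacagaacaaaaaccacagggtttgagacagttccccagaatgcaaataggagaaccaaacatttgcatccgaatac
The motifs of AP-1 (TGANTCA), the PU.1 core (GAGGAAGT) and NF-kappaB were searched on both strands of the whole windows. AP-1 matched the window of Il1a and 1 of 3 of Il1rn, against 7.81% of all 32851 windows. NF-kappaB matched both windows of Casp4, which overlap, at the same places, namely a pair of matches offset by 1 base and a single match nearer the start, and 1 of 2 of Nlrp3, against 8.46% of all. The PU.1 core matched the window of Pycard, against 3.20% of all. The windows of Il1b and Il18 held no match. A match is a description of letters and does not show a bound site.

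Of the agonists, Il1a, interleukin-1 alpha (ENSMUSG00000027399, build mm10, chromosome 2, 129299610 to 129309972, minus strand), had the widest spread of the 10 genes. It measured 645, 709 and 715 CPM in S1001 to S1003, 18.8, 57.0 and 16.9 CPM in S1004 to S1006, and 1.55, 0.487 and 0.308 CPM in S1007 to S1009. The sets of libraries did not overlap, and the spread of 8.90 on the log2 scale was larger than that of 99.9% of genes averaging 1 CPM or more. The lowest values rest on 23, 8 and 5 counts, and the spread was 8.12 without S1008 or without S1009.

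Il1b, interleukin-1 beta (ENSMUSG00000027398, chromosome 2, 129364570 to 129371139, minus strand), lies 54597 bases from Il1a. It measured 652, 635 and 658 CPM in S1001 to S1003, 84.5, 141 and 64.7 CPM in S1004 to S1006, and 1.14, 0.670 and 1.17 CPM in S1007 to S1009. The order of the sets was that of Il1a, again without overlap, but S1004 to S1006 lay closer to S1001 to S1003, and the spread was 8.25 on the log2 scale. The deposited FPKM are per length, and the counts imply lengths of about 1974 bases for Il1a and 1907 for Il1b, not the whole gene spans. In FPKM, Il1a was 0.955, 1.08 and 1.05 times the level of Il1b in S1001 to S1003 and 0.215, 0.390 and 0.253 times in S1004 to S1006. The 2 agonists were thus at nearly equal levels in the first 3 libraries, and Il1b was the higher in the next 3. In S1007 to S1009 the ratio of FPKM rests on 5 to 23 counts of each gene and was 1.31, 0.714 and 0.254.

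Il18, interleukin-18 (ENSMUSG00000039217, chromosome 9, 50554827 to 50581840, plus strand), behaved unlike either. It measured 9.75, 11.4 and 11.3 CPM in S1001 to S1003, 14.4, 8.55 and 11.99 CPM in S1004 to S1006, and 6.32, 7.49 and 7.58 CPM in S1007 to S1009. The first 2 sets overlapped and the last lay just below them. Its spread of 0.61 on the log2 scale exceeded that of 44.9% of genes, and its full range, 1.07, was just over 2-fold. The level in S1007 to S1009 rests on 94 to 123 counts, in libraries whose microglial markers summed to at most 116 CPM. Bco2, an overlapping gene on the other strand, measured 10.8 to 14.0 CPM in S1001 to S1003 and at most 0.183 CPM in S1007 to S1009. The strand setting of the counts is not given, so reads of the overlap are uncertain. Per length, Il1b was 30.2 to 36.1 times as high as Il18 in S1001 to S1003, 2.92 to 8.94 times in S1004 to S1006 and 0.0478 to 0.0978 times in S1007 to S1009, as ratios of deposited FPKM.

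**Figure D2:**
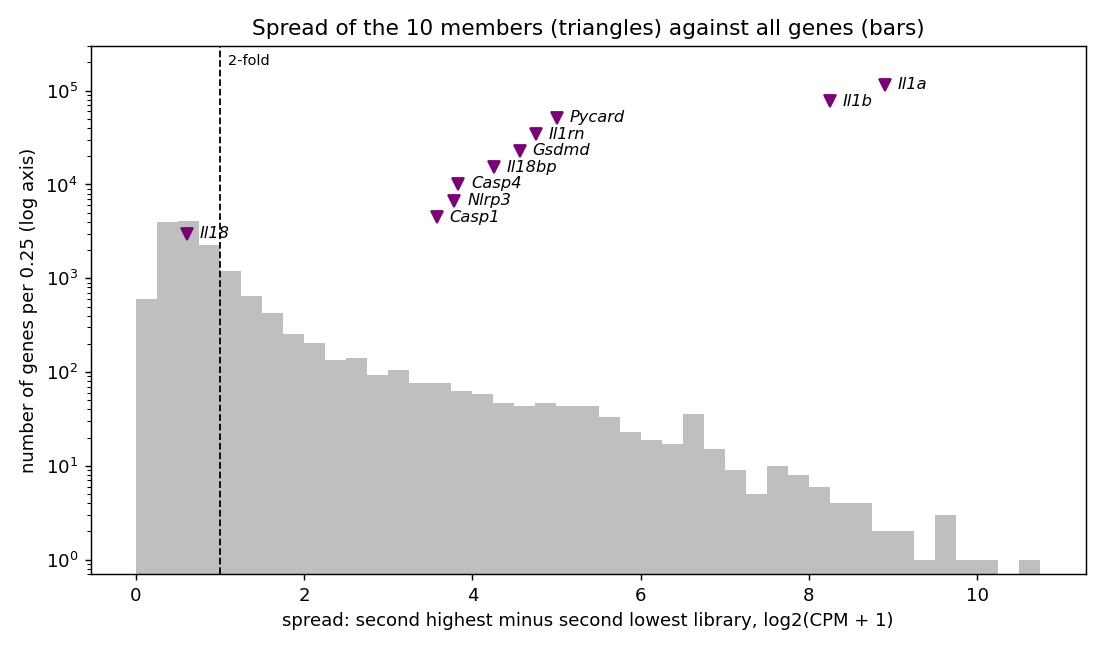
Spread of the 10 genes (triangles, placed at arbitrary heights) over a histogram of the spread of all 14787 genes averaging 1 CPM or more, with the number of genes on a log axis and a dashed line at 2-fold. Il1a and Il1b lie at 8.90 and 8.25 on the log2 scale, 7 genes lie between 3.58 and 5.00, and Il18, at 0.61, lies within the bulk of all genes.

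The antagonists followed Il1a and Il1b in the order of the 3 sets. Il1rn, the receptor antagonist that occupies the interleukin-1 receptor without signalling (ENSMUSG00000026981, chromosome 2, 24336853 to 24351494, plus strand), measured 22.6, 26.1 and 30.5 CPM in S1001 to S1003, 0.790, 1.31 and 0.654 CPM in S1004 to S1006, and 0.0673, 0 and 0 CPM in S1007 to S1009. The last 3 values stand for 1, 0 and 0 counts, and the spread was 4.76 on the log2 scale. Per length, Il1rn was a small fraction of Il1b, with ratios of deposited FPKM of 0.0120, 0.0142 and 0.0160 in S1001 to S1003 and 0.00318, 0.00323 and 0.00345 in S1004 to S1006. The second set of ratios rests on 9 to 19 counts of Il1rn. The 2 sets of ratios did not overlap.

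Il18bp, a secreted protein that binds and neutralises interleukin-18 (ENSMUSG00000070427, chromosome 7, 102014885 to 102018690, minus strand), measured 41.1, 36.9 and 36.3 CPM in S1001 to S1003, 5.90, 8.07 and 5.16 CPM in S1004 to S1006, and 1.82, 0.975 and 0.308 CPM in S1007 to S1009. The spread was 4.26 on the log2 scale, and the sets did not overlap. Il18bp thus varied while Il18 hardly did. Per length, Il18 was 0.697 to 0.912 times as high as Il18bp in S1001 to S1003, 3.11 to 7.19 times in S1004 to S1006 and 10.2 to 70.4 times in S1007 to S1009, as ratios of deposited FPKM, the last with 5 to 27 counts of Il18bp. Il18bp overlaps Numa1 on the other strand, which measured 26.6 to 37.0 CPM in all libraries.

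Of the sensor and adaptor, Nlrp3 (ENSMUSG00000032691, chromosome 11, 59541568 to 59566956, plus strand), which senses membrane damage and potassium loss, measured 12.2, 15.7 and 12.8 CPM in S1001 to S1003, 1.37, 5.59 and 1.74 CPM in S1004 to S1006, and 0, 1.40 and 0 CPM in S1007 to S1009. S1008 held 23 counts where S1007 and S1009 held 0, and it overlapped the range of S1004 to S1006. The spread was 3.79 on the log2 scale, and 2.54 without S1007 or without S1009. Pycard, which encodes the adaptor ASC (ENSMUSG00000030793, chromosome 7, 127989708 to 127993867, minus strand), measured 73.4, 64.3 and 58.9 CPM, then 24.5, 15.7 and 20.2 CPM, then 1.21, 1.04 and 0.0616 CPM in the same order of libraries. Its sets did not overlap, and its spread was 5.00. The values in S1007 to S1009 rest on 18, 17 and 1 counts.

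The caspases differed from each other. Casp1 (ENSMUSG00000025888, chromosome 9, 5298517 to 5307265, plus strand) measured 22.5, 27.7 and 23.1 CPM in S1001 to S1003, 20.2, 13.7 and 25.4 CPM in S1004 to S1006, and 1.21, 0.609 and 2.03 CPM in S1007 to S1009. S1001 to S1003 overlapped S1004 to S1006, and the spread of 3.58 on the log2 scale was 0.32 with S1007 to S1009 left out. Casp4 (ENSMUSG00000033538, chromosome 9, 5308828 to 5336783, plus strand) begins 1562 bases beyond the end of Casp1. It measured 13.6, 12.6 and 13.3 CPM in S1001 to S1003, 3.11, 5.38 and 2.54 CPM in S1004 to S1006, and 0, 0.122 and 0 CPM in S1007 to S1009, with no overlap and a spread of 3.83. Per length, Casp4 was 0.183 to 0.244 times as high as Casp1 in S1001 to S1003 and 0.0403 to 0.159 times in S1004 to S1006, as ratios of deposited FPKM. The 2 genes are related in sequence, and how reads they share were treated in counting is not given.

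Gsdmd, gasdermin D (ENSMUSG00000022575, chromosome 15, 75862327 to 75867408, plus strand), measured 21.1, 24.8 and 24.2 CPM in S1001 to S1003, 13.3, 12.5 and 10.5 CPM in S1004 to S1006, and 0.0673, 1.04 and 0.0616 CPM in S1007 to S1009. The sets did not overlap. S1008 held 17 counts against 1 and 1 in S1007 and S1009. The spread was 4.56 on the log2 scale, 3.63 without S1007 or without S1009, and 0.91, under 2-fold, with all 3 of S1007 to S1009 left out.

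Levels were also set against the microglial markers. The difference between a gene's log2(CPM + 1) and the mean of the 13 microglial markers was 0.47 to 0.50 for Il1b in S1001 to S1003 and -0.24 to 0.73 in S1004 to S1006, so the 2 ranges overlapped. For Il1a it was 0.46 to 0.64 and -2.23 to -0.56 in the same sets, and for Il1rn -4.32 to -3.88 and -5.70 to -5.21. These 2 genes were lower relative to the markers in S1004 to S1006. The opposite held for Casp1, at -4.32 to -3.99 in S1001 to S1003 and -2.54 to -1.56 in S1004 to S1006, and for Gsdmd, at -4.41 to -4.14 and -2.75 to -2.67. Pycard, Casp4 and Il18 were higher relative to the markers in S1004 to S1006 as well. For Il18bp and Nlrp3 the ranges overlapped, at -3.64 to -3.48 and -3.75 to -3.24 for Il18bp and -5.15 to -4.77 and -5.30 to -3.70 for Nlrp3. The markers did not keep a fixed distance from their own mean either. Taken as the median difference in S1001 to S1003 minus that in S1004 to S1006, the 13 markers ranged from -1.83 for Csf1r to 3.46 for Tmem119, and 8 of the 10 genes lay within that range. The exceptions were Il18, at -2.65, and Casp1, at -2.13. Over all 9 libraries the difference from the marker mean spread by 2-fold or more for all 10 genes, as it did for 99.9% of all genes, so that this count says nothing about the 10. In S1007 to S1009 the marker mean was 1.07 to 2.70, so that differences there depend on the pseudocount of 1 CPM. In S1004 to S1006 the difference of Il1rn, at 0.654 to 1.31 CPM, depends on it too. The same holds to a lesser degree for Nlrp3, at 1.37 to 5.59 CPM, and Casp4, at 2.54 to 5.38 CPM.

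**Figure D3:**
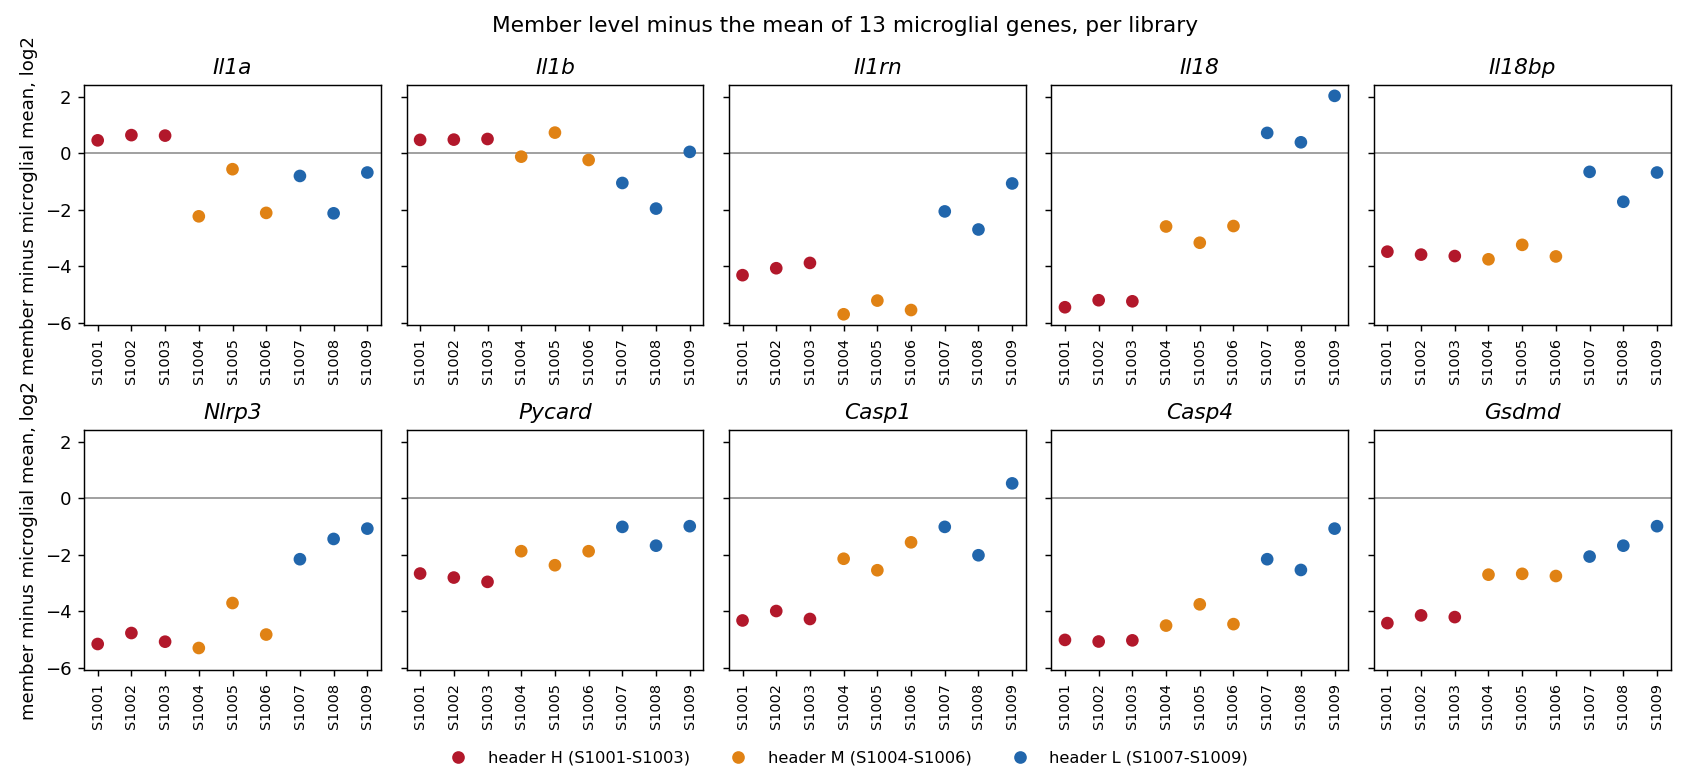
Level of each gene minus the mean level of 13 microglial markers, both as log2(CPM + 1), per library and coloured by header letter, with a line at 0. Il1b lies between -0.24 and 0.73 in S1001 to S1006, Il1a and Il1rn are lower in S1004 to S1006 than in S1001 to S1003, and Casp1 and Gsdmd are higher.

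The 10 genes also differed from each other in pattern. Likeness was measured as the root mean square difference, over the 9 libraries, between 2 genes' log2(CPM + 1) after each was centred on its median. The closest pair was Il18bp and Casp4, at 0.51, followed by Pycard and Gsdmd, at 0.60, and Casp1 and Gsdmd, at 0.63. Among genes averaging 10 CPM or more, the nearest to Il1a were Cxcl10, Icam1 and Selplg, at 0.58 to 0.97. Nearest to Il1b were Ccrl2, Ly86 and H2-K1, at 0.25 to 0.60, and nearest to Il1rn were Cldn11, Isg15 and Gbp2, at 0.22 to 0.32. Il18 was nearest to Sptssa, Washc3 and Pcdh10, at 0.15 each, and Il18bp to Tgfbr1, H2-T23 and Gsap, at 0.28 to 0.36. Cdkn1a, Ptgs2 and Naglu were nearest to Nlrp3, at 0.47 to 0.55, and Cd37 and Psmb9 were near to Pycard, at 0.21 and 0.28. For Casp1 they were Rab32, Mtus1 and Abca1, at 0.27 to 0.35, for Casp4 Chd7, H2-M3 and Gsap, at 0.27 to 0.33, and for Gsdmd Il21r, Nuak2 and Tifab, at 0.14 to 0.22. Cldn11 is also 1 of the 8 oligodendrocyte markers. H2-K1, H2-T23 and H2-M3 belong to a family of similar genes, so their counts are uncertain.

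Of 53 other genes of the pathway, 51 were found and 32 averaged 1 CPM or more. Of these 26 passed 2-fold, against 26.4% of all genes, a share that also applies to the counts of single lists below. The median spread was 1.90 on the log2 scale. S1001 to S1003 were the 3 highest libraries for 15 of the 32, against 12.7% of all genes. Some of the 15, such as Nlrp1b and Il1rl2, averaged 1 CPM only through these libraries, and without them 27 genes averaged 1 CPM. S1004 to S1006 were the 3 highest for 4, against 4.72% of all genes. Nlrc4, 1 of the 4, averaged 1 CPM only through S1004 to S1006, so it adds nothing to this count. S1007 to S1009 were the 3 lowest for 20, against 13.6%. These lists too were chosen with earlier results of these data known.

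Of 5 other ligands found, Il33, an alarmin of the family, was the only one to average 1 CPM, and it ranged from 0.370 to 9.37 CPM. Of the 8 receptors, 4 averaged 1 CPM and 3 of these passed 2-fold. Il1rap, the co-receptor chain for interleukin-1, did not pass and ranged from 16.0 to 49.5 CPM. Il1r1, the signalling receptor for both agonists, measured 0.991 to 1.84 CPM in S1001 to S1003, 1.24 to 4.07 CPM in S1004 to S1006 and 0.942 to 4.14 CPM in S1007 to S1009, and these ranges overlapped. Il1rl2, the receptor for interleukin-36, had the widest spread of the receptors, 2.12, and was at 0 in S1007 to S1009. Il1r2, a decoy receptor, ranged from 0 to 1.85 CPM. Il18r1 and Il18rap, the interleukin-18 receptor chains, stayed under 1 CPM in all libraries, with at most 0.820 and 0.538 CPM.

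Of the 7 adaptors and kinases downstream of the receptor, 5 passed 2-fold. Myd88, the shared adaptor, ranged from 7.98 to 29.2 CPM, and Tollip, an inhibitory adaptor that did not pass, from 88.3 to 189.6 CPM. Irak4, the first kinase of the complex, measured 5.53 to 5.79 CPM in S1001 to S1003, 4.62 to 6.47 CPM in S1004 to S1006 and 0.0673 to 0.365 CPM in S1007 to S1009. Irak2 was 23.9 to 24.2 CPM, 5.96 to 11.6 CPM and 2.03 to 4.99 CPM in the same order.

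All 7 of the other inflammasome sensors that averaged 1 CPM passed 2-fold. Naip2 and Naip5, which bind bacterial proteins, measured 8.52 to 11.1 and 9.51 to 11.1 CPM in S1001 to S1003 and were at 0 in S1007 to S1009. They are near copies of each other, so their counts are uncertain. Nlrc4, with which they assemble, had another order. It measured 1.45 to 2.13 CPM in S1001 to S1003, 5.93 to 7.12 CPM in S1004 to S1006 and 0 to 0.0616 CPM in S1007 to S1009. Aim2, a sensor of cytosolic DNA, measured 9.00 to 11.1 CPM in S1001 to S1003, 2.05 to 2.41 CPM in S1004 to S1006 and 0.471 to 1.04 CPM in S1007 to S1009.

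Of the 11 regulators at 1 CPM, 9 passed 2-fold. Txnip, an inhibitor of thioredoxin that has been linked to NLRP3, measured 140.1 to 147 CPM in S1001 to S1003, 226 to 285 CPM in S1004 to S1006 and 0.431 to 1.48 CPM in S1007 to S1009. P2rx7, the ATP-gated channel that triggers NLRP3, was also highest in S1004 to S1006, at 37.6 to 49.3 CPM, against 21.6 to 25.0 CPM in S1001 to S1003 and 0.308 to 1.28 CPM in S1007 to S1009. Tnfaip3, a brake on NF-kappaB signalling, had the order of Il1b, at 175 to 192 CPM, 41.0 to 103 CPM and 3.14 to 9.69 CPM. Brcc3, a deubiquitinase, did not pass and ranged from 61.1 to 94.4 CPM. Of the gasdermin and membrane rupture genes 2 averaged 1 CPM. Gsdme, a gasdermin that caspase-3 cleaves, did not pass and ranged from 101 to 190.2 CPM, while Ninj1, which mediates membrane rupture, passed with 16.6 to 42.2 CPM in S1007 to S1009 and 114 to 199 CPM in the other 6 libraries.

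**Figure D4:**
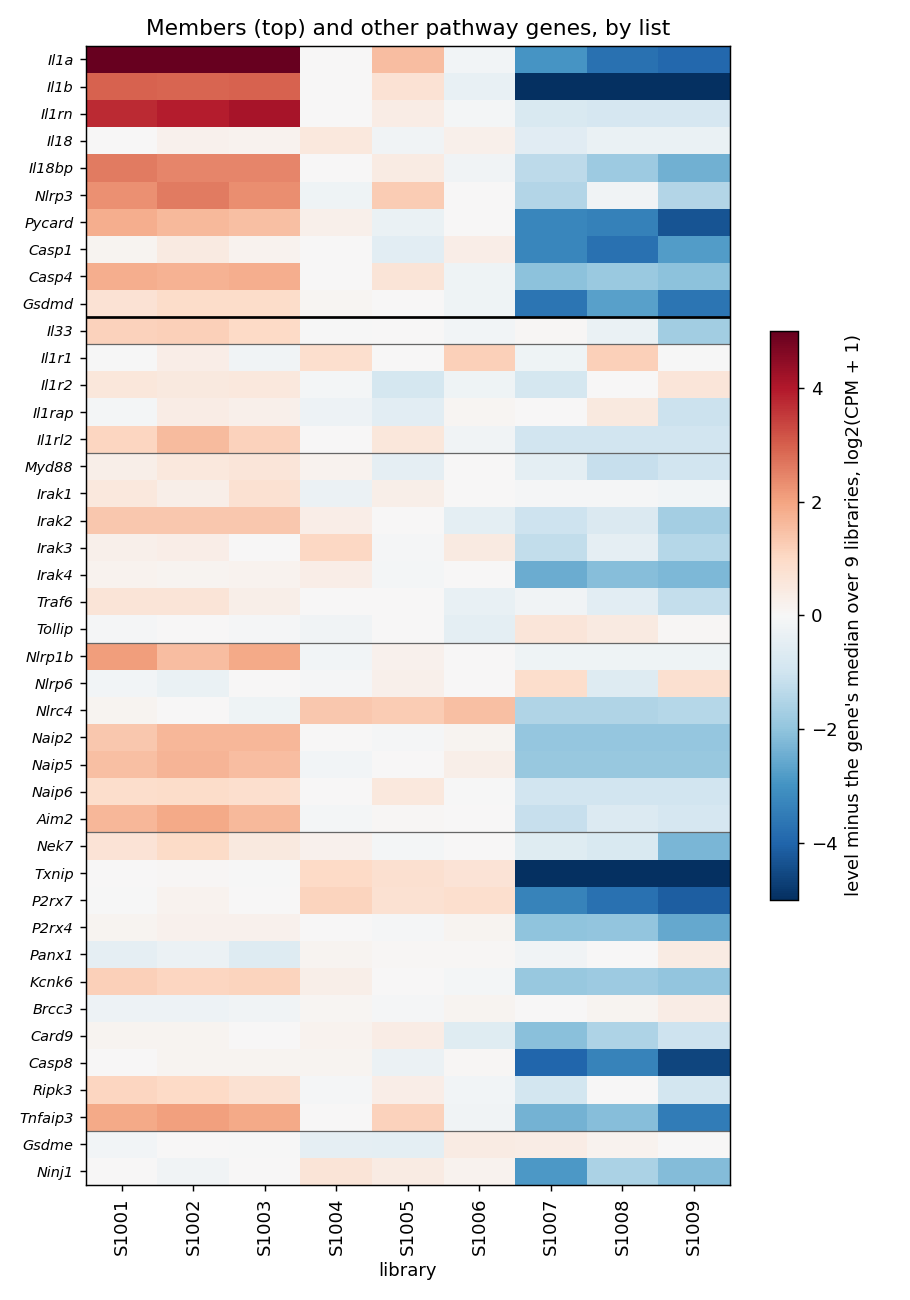
Level of the 10 genes (above the thick line) and of the 32 pathway genes averaging 1 CPM or more, grouped by list, as log2(CPM + 1) minus the gene's median over the 9 libraries. Colours stop at 5 in either direction, red is above the median and blue below; Il1a and Il1b have the widest spreads of the genes shown, 8.90 and 8.25, and Brcc3, at 0.36, and Il18, at 0.61, the smallest.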

How the data were processed

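RNA of sorted hippocampal cells was profiled in 9 libraries. Tools named in the submitters' processing notes are HISAT2 2.0.1, HTSeq 0.6.1, Trimmomatic 0.30 and bcl2fastq 2.17.1.14, with build mm10. The sources used here give neither their roles nor the annotation or the strand setting. The authors deposited, per the file headers, for each of 51912 Ensembl genes both an unscaled count and its FPKM. GENCODE M21 supplied symbols and coordinates.

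The labels give 0 of 9 libraries a group, so no differences were tested. This leaves the comparison over header letters as a description.

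TMM factors (edgeR 4.0.16, R 4.3.3) turned counts into CPM, used as log2(CPM + 1). The spread of a gene was the difference between its second highest and second lowest library, with 2-fold as threshold, among genes averaging 1 CPM or more. Ratios between genes were planned in CPM and are given in FPKM, which is per length. Those of Il1b to Il18 and of Casp4 to Casp1 were added after the values were seen. The implied lengths were 1031 to 1032 bases for Il18, 3023 to 3030 for Il18bp, 1497 for Casp1 and 3707 to 3714 for Casp4. In CPM, Il18 was 0.238 to 0.311 times Il18bp and Casp4 0.454 to 0.604 times Casp1 in S1001 to S1003. All 10 genes are named, with the 2 most abundant and the 2 most variable of each pathway list, the 3 nearest genes to each of the 10, and leading genes of the marker lists, though not every gene so chosen is reported here. Nlrc4, Aim2, Brcc3, Il18r1 and Il18rap were added after their values were seen. The genes and lists were chosen with earlier results of these data known. Calculations used Python 3.11.15, pandas 2.3.3 and numpy 2.4.6. Only the spread was tested on simulated data. Alternatives were other scalings (DESeq2 1.42.0 size factors among them), pseudocounts, minimum levels, the full range, FPKM, and libraries left out.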

Additional observations from a re-analysis of the deposited data

How the results depend on the processing

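The count of 9 genes past 2-fold, of 10, stayed within 1.5 times under all 19 alternatives, between 6 (of 6 genes, at a minimum mean of 10 CPM) and 10 (highest minus lowest library). With each library left out in turn it was 9 to 9. Of 185 spreads of the 10 genes under an alternative, 182 kept their side of 2-fold. Without S1007 to S1009 Casp1 dropped to 0.32 and Gsdmd to 0.91 on the log2 scale, and with the full range Il18 reached 1.07.

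The background count of 3911 genes became 1955 with a pseudocount of 5 CPM, 1770 at a minimum of 10 CPM, 7771 with the full range and 2501 with deposited FPKM. Of 14787 genes considered, these settings kept 14787, 9646, 14787 and 12689. The count was 2270 of 14430 without S1001 to S1003, 1508 of 14945 without S1007 to S1009 and 3204 to 3661 with each library left out in turn. The 26 of 32 other pathway genes past 2-fold became 15 of 32, 9 of 15, 30 of 32 and 12 of 19 under the same 4 settings, 15 of 27 without S1001 to S1003, 11 of 31 without S1007 to S1009 and 22 to 26 with each library left out. Relative to the microglial markers, 10 genes spread over 2-fold over all 9 libraries, as did 99.9% of all genes. The count was 6 of 6 at a minimum of 10 CPM, 8 of 9 without S1001 to S1003 and 5 of 10 without S1007 to S1009. With each library left out it was 9 to 10. The share of all genes was not computed under these alternatives. Fewer genes entered with a higher minimum or with FPKM and fewer libraries where some were left out, and the cause of the other changes was not tested. No paired analysis was possible because the labels give no group and no shared replicate number. The levels of Il1a, Il1b, Il1rn, Il18bp, Nlrp3, Pycard, Casp1, Casp4 and Gsdmd in S1007 to S1009 rest on 0 to 33 counts each.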

Other observations

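Within S1004 to S1006, the 10 genes did not share an order. S1005 was the highest of the 3 for 6 genes, Il1a, Il1b, Il1rn, Il18bp, Nlrp3 and Casp4, and the lowest for 3, Il18, Pycard and Casp1. Tnfaip3, at 46.2, 103 and 41.0 CPM in S1004 to S1006, was also highest in S1005. The mean of the microglial markers was 6.54, 6.42 and 6.28 on the log2 scale in S1004 to S1006. Oligodendrocyte markers summed to 116, 156 and 93.5 CPM and astrocyte markers to 179.5, 264 and 163 CPM, both highest in S1005. Border macrophage markers, at 2245, 1588 and 1895 CPM, were lowest there. The part of these cells in the order was not tested. This order was noticed after the values were seen and was not tested.

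Transcripts annotated across Il1a and Il1b were counted too. Gm14023, on the strand opposite Il1a, measured 40.1, 50.0 and 42.9 CPM in S1001 to S1003, 3.16, 8.21 and 3.42 CPM in S1004 to S1006, and 1.08, 0.183 and 1.73 CPM in S1007 to S1009. Il1bos, on the strand opposite Il1b, ranged from 0 to 1.38 CPM. The strand setting of the counts is not given, so reads of these genes and of Il1a or Il1b cannot be told apart where they overlap.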
